A study of Homo sapiens with 9 samples.

Results

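Cancer-testis antigens of the MAGE, PAGE and GAGE families and PRAME were followed in A375 cells, a human melanoma cell line, after knockdown of SPANX, another family of cancer-testis antigens. The set holds 10 genes, namely MAGEA4, MAGEA6, MAGEA10, MAGEA11, MAGEC1, MAGEC2, PAGE1, PAGE5, GAGE2A and PRAME, taken by gene symbol from the 60420 gene IDs in the files. No measured value entered the matching by symbol, but the members were chosen with earlier results of these data known. All 10 were among the 13825 gene IDs that could be tested in every group. The 9 libraries are A375 cells with the label SPANX KD 86 (3 libraries), A375 cells with the label SPANX KD 87 (3 libraries) and A375 cells with the label EV control (3 libraries), all from RNA taken at day 7. No other allele, agent or treatment is labelled in any group. The labels do not say what 86 and 87 stand for, so they are called constructs here, nor whether the 3 libraries of a group came from separate cultures; the p-values therefore rest on how far the 3 libraries differ, and that spread could be technical. The series title ties SPANX to Lamin A/C, nuclear architecture and melanoma growth, and the comparisons below ask what the levels of the other cancer-testis antigens did when SPANX was reduced.

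Cancer-testis antigens are proteins made in the germ cells of the testis and in many tumours but in few other adult tissues. Their genes are held silent in most somatic cells by DNA methylation, and many of them, including the MAGEA, MAGEC, PAGE and GAGE genes, sit in duplicated clusters on chromosome X. MAGE proteins share a MAGE homology domain with which they bind RING-type ubiquitin ligases and direct them to substrates. MAGEA6 and MAGEC2 bind TRIM28, MAGEA11 is a nuclear protein of transcription complexes, and GAGE and PAGE proteins are small, largely unstructured proteins of less settled function. PRAME is a leucine-rich repeat protein that serves as the substrate receptor of a CUL2 ubiquitin ligase and was described as a repressor of retinoic acid receptor signalling. It is used as a marker in the diagnosis of melanoma.

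The sequence just before the start site is shown for the genes on which the results turn, since the silencing of this family acts on the start region. RefSeq (GRCh38.p14) gave promoters for 9 of the 10 genes, with 15 start sites in all, and MAGEA10 was not matched. Each line gives the 250 bases before the start, read in the direction of the gene, and the capitals mark the 8 letters CCGGATGT, which were noticed in these sequences and were not chosen in advance. MAGEA4 has 5 listed starts, and the one with the highest coordinate (chrX:151918038-151918287, + strand) is shown. The others are MAGEA11 (chrX:149711810-149712059, + strand), MAGEC1 (chrX:141903644-141903893, + strand), MAGEC2 (chrX:142205291-142205540, - strand), PAGE1 (chrX:49695985-49696234, - strand) and the first of 3 listed starts of PRAME (chr22:22559266-22559515, - strand).
MAGEA4: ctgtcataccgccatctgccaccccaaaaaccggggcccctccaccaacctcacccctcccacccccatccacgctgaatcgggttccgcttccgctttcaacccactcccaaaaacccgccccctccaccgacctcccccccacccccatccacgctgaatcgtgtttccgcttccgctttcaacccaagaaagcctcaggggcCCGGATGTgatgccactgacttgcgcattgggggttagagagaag
MAGEA11: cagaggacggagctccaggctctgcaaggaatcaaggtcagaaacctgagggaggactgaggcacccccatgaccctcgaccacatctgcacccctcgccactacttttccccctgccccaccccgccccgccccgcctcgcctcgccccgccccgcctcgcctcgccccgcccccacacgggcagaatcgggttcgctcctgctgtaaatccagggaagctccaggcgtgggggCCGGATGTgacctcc
MAGEC1: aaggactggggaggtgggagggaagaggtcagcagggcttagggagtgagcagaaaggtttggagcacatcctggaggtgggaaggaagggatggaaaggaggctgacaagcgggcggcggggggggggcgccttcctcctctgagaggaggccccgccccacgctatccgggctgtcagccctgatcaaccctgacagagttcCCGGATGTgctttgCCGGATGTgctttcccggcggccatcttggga
MAGEC2: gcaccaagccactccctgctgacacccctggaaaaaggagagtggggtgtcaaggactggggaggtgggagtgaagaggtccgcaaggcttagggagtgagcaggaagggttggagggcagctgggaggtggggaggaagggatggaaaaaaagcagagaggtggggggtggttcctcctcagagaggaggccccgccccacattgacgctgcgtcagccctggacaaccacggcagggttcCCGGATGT
PAGE1: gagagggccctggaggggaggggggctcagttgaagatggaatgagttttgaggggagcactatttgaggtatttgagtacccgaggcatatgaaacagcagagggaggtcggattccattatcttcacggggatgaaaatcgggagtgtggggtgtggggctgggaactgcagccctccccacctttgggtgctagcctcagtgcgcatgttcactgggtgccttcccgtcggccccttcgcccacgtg
PRAME: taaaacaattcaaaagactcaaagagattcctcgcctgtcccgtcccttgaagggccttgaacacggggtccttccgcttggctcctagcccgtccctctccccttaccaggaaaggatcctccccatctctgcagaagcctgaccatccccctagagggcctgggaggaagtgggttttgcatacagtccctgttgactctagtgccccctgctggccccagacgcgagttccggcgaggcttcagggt
CCGGATGT, read on both strands, stood in 8 of the 15 start regions, those of MAGEA4 (5 of 5 starts), MAGEA11, MAGEC1 and MAGEC2, against 0.592% of 35116 promoters of the same length. MAGEC1 holds it 2 times, and in all 8 regions it lies within the last 46 bases before the start. These genes arose by duplication and share sequence, so the matches are not independent of each other. The start regions of MAGEA6, PAGE1, PAGE5, GAGE2A and PRAME hold no match to these letters. Outside the set, the listed start regions of MAGEA12 hold it, and those of MAGEA3, PAGE2 and GAGE1 do not. MAGEA12 passed in no comparison (below), so the letters are not particular to antigens that were called. A related 6-letter run, CCGGAA, stood in the regions of MAGEA6 and PRAME (1 start each) and in 14.5% of all promoters. The first 5 letters of both runs are the same. CpG dinucleotides numbered 4 to 18 per 250 bases in the 15 regions, against a median of 11 over all promoters (quartiles 3 and 23). The start regions of MAGEA6 and MAGEA3 were identical over 250 bases, as were those of GAGE2A and GAGE1. A match describes the letters in these windows and says nothing of binding.

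Libraries were sequenced from the 3' ends of transcripts (QuantSeq), so a read marks a transcript end and reads do not rise with transcript length. Recovered depth was 11310656 to 15565966 reads per library, and levels below are normalised reads on 1 scale for all 9 libraries. As a check of the knockdown, SPANXC averaged 59.7 ± 36.6 normalised reads with construct 86, 25.6 ± 7.76 with construct 87 and 353.6 ± 185 in EV (SD, n = 3 each), and fell with both constructs (limma adjusted p = 0.00371 and 0.00334). SPANXD had 2, 19 and 212 recovered reads in all with construct 86, construct 87 and EV and also fell with both (adjusted p = 1.4e-04 and 0.00809). In SPANXC and SPANXD 55.3% and 38.1% of the possible reads in the last 300 bases also occur in other SPANX genes. The copies can thus be told apart at most in part. Between constructs SPANXD was higher with construct 87 (limma log2 difference 2.2, adjusted p = 0.0172). That call was lost with a pseudocount of 5 (0.122) and without SPANX KD 86 replicate 3 or SPANX KD 87 replicate 3 (0.0517 and 0.0525). SPANXC did not pass between constructs (-1.07, 0.149) but was lower with construct 87 in a fit with the replicate number as a block (0.0222). The melanoma label was checked against 10 melanocyte and melanoma markers: MLANA, TYR, DCT and TYRP1 stood at 0 in every library, and the other 6 summed to 15734 to 21948 normalised reads with construct 86, 8860 to 13057 with construct 87 and 3419 to 6880 in EV. Most of that sum was SOX10, a neural crest transcription factor, with 12749 to 19640, 7080 to 11371 and 2266 to 5890 normalised reads in the same order. SOX10 and S100A1 rose with construct 86 (adjusted p = 0.00112 and 6.8e-05) and construct 87 (0.0224 and 0.00274). PAX3, another transcription factor of the melanocyte lineage, fell with construct 87 (2.45-fold, adjusted p = 0.00558). The construct 87 call of SOX10 was lost without EV replicate 1 or 3 or SPANX KD 87 replicate 1 or 2 (0.095, 0.0626, 0.103 and 0.0835). A value of 0 in these files can also mean that the gene was filtered out before deposit, since 453 gene IDs have reads with construct 87 while standing at 0 in both other groups, and 400 show the opposite. All 6 germ cell markers of the testis (DDX4, DAZL, TNP1, ACR, ZPBP and TEX101) stood at 0 in every library. Of the markers of other cells, 7 of 8 for fibroblasts were above 0 in at least 1 library and summed to 1106 to 1409 normalised reads with construct 86, 929.4 to 1118 with construct 87 and 425.8 to 481.1 in EV, with THY1 at 0; 2 of 6 keratinocyte markers summed to 693.1 to 1171, 1352 to 1799 and 1032 to 2190 in the same order, with KRT5, KRT1, CDH1 and TP63 at 0. Of the leukocyte markers LYZ alone was above 0 (238 to 336.1, 366.5 to 818.6 and 145.3 to 261.9) and of the endothelial markers TEK alone (34 to 49.4, 0, and 7.78 to 9.7), and the part of any of these shifts in the antigen results was not tested. A lower level in a bulk library may come from fewer cells that make a transcript or from less of it per cell, and these cannot be told apart.

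With construct 86, 4 of the 10 antigens fell and none rose against EV (limma, adjusted p under 0.05), where 17.6% of all tested genes fell and 18% rose. The 4 are MAGEA4, MAGEA10, MAGEC1 and PAGE1. With construct 87, 1 of the 10 fell, MAGEC2, and none rose, where 4.42% of all tested genes fell and 5.89% rose. Between the constructs, 4 antigens were higher with construct 87 than with construct 86 (MAGEA4, MAGEA10, MAGEA11 and PAGE1), where 12.7% of all tested genes were, and 2 were lower (MAGEC2 and PRAME), where 12.9% were. The median log2 fold change of the 10 was -0.74 with construct 86 against -0.04 over all tested genes, -0.17 with construct 87 against 0.0, and 0.62 for construct 87 against construct 86 where all genes had 0.02. The 3 comparisons share libraries (EV in both of the first, each construct in the third), so they are not independent of each other. Same-numbered libraries of different groups moved together, and a fit with the replicate number as a block called 7647 genes with construct 86 (55.3%, 27% higher and 28.3% lower), 4280 with construct 87 (31%, 16.1% higher and 14.8% lower) and 6096 between constructs (44.1%, 22.2% higher and 21.9% lower with construct 87). Among the antigens that fit gave 1 rise and 6 falls with construct 86, 0 rises and 2 falls with construct 87, and 5 higher and 2 lower with construct 87 than with construct 86; the genes it adds are given beside their values.

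**Figure D1:**
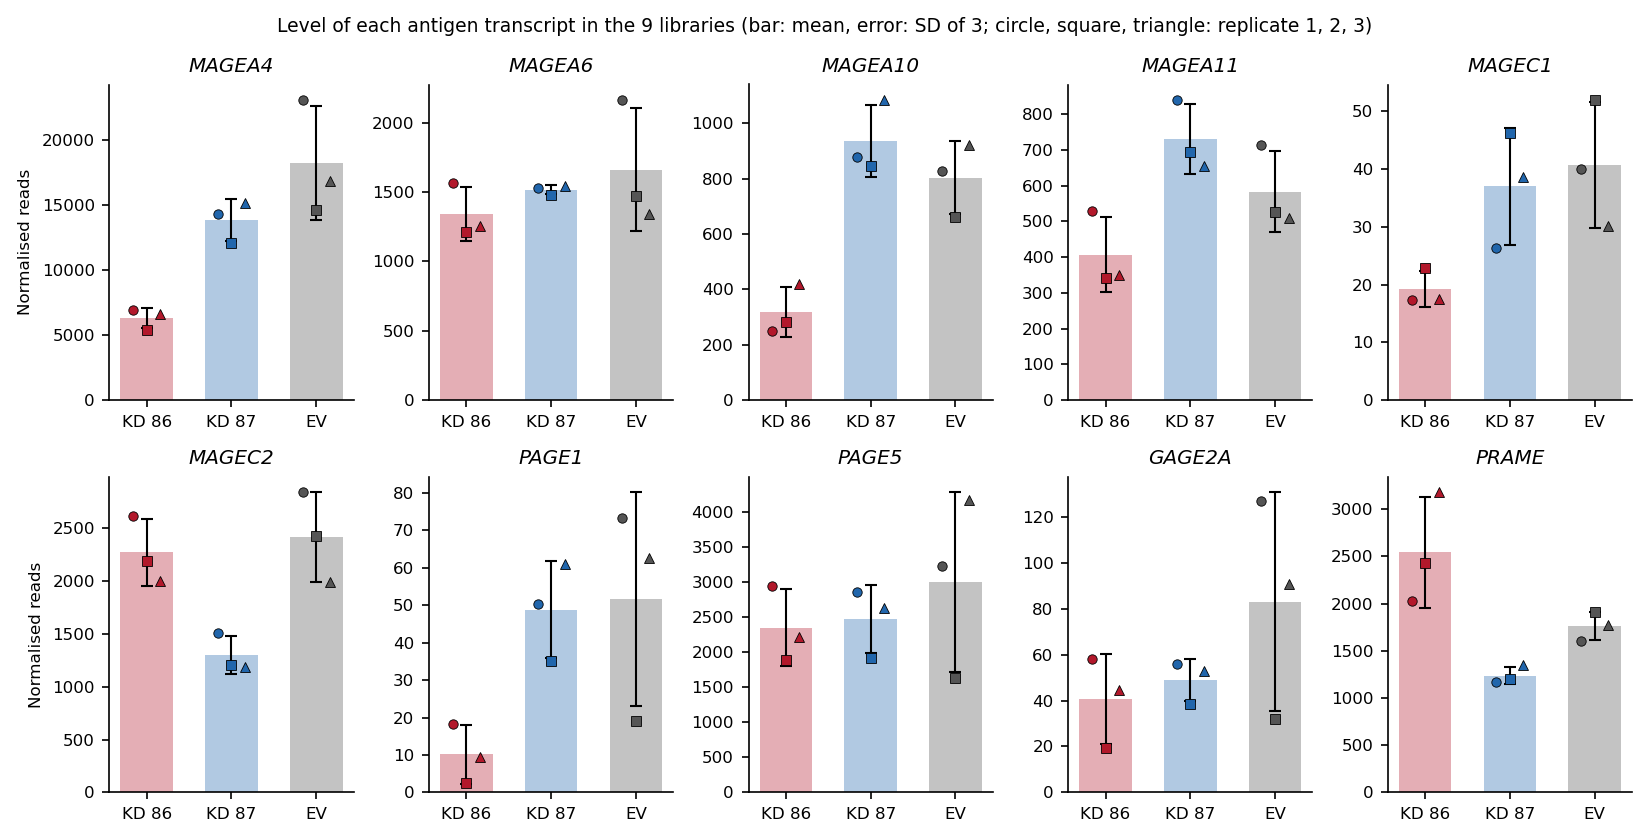
Normalised reads (vertical axes, each from 0 and each with its own scale) of the 10 antigens in SPANX KD 86, SPANX KD 87 and EV libraries; bars are means and error bars SDs of 3 libraries, and circles, squares and triangles are replicates 1, 2 and 3. The SPANX KD 86 libraries lie below all EV libraries for MAGEA4, MAGEA10, MAGEC1 and PAGE1, the SPANX KD 87 libraries lie below all EV libraries for MAGEC2, and PRAME is above EV with construct 86 and below EV with construct 87 in all libraries.

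MAGEA4, whose protein stabilises the DNA repair ligase RAD18 and is a target of T cell therapies, gave the most reads of the set. It had 6927, 5416 and 6602 normalised reads in SPANX KD 86 libraries, 14362, 12076 and 15185 in SPANX KD 87 libraries, and 23146, 14678 and 16892 in EV libraries. All construct 86 libraries lay below all the others, while the construct 87 and EV libraries overlapped. The level with construct 86 was 2.85-fold below EV (log2 fold change -1.51 ± 0.23 SE, 95% interval -2.01 to -1.01, limma adjusted p = 8.6e-04). With construct 87 the log2 fold change against EV was -0.37 (95% interval -0.87 to 0.12, adjusted p = 0.312). The level with construct 87 was 2.2-fold above that with construct 86 (log2 difference 1.14, adjusted p = 0.00466). Because MAGEA4 dominates the reads of the set, its share of the summed reads of the 10 antigens was 39.3% to 41% with construct 86, 61.7% to 63.8% with construct 87 and 60.8% to 66.6% in EV. That sum was 13800 to 16957 normalised reads with construct 86, 19542 to 23785 with construct 87 and 23392 to 34760 in EV.

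MAGEA10, a MAGEA antigen recognised by T cells, was likewise lowest with construct 86. It had 250.9, 283.7 and 419.8 normalised reads in SPANX KD 86 libraries, 877.5, 846.2 and 1085 in SPANX KD 87 libraries, and 826.7, 659.6 and 920.5 in EV libraries. The construct 86 libraries were again the lowest 3 of the 9, and construct 87 and EV overlapped. It was 2.56-fold lower with construct 86 than in EV (log2 fold change -1.35 ± 0.23 SE, adjusted p = 0.00175) and 2.99-fold higher with construct 87 than with construct 86 (log2 difference 1.58, adjusted p = 0.00103). Against EV, the construct 87 log2 fold change was 0.23 (95% interval -0.29 to 0.74, adjusted p = 0.561). In its last 300 transcript bases 13.9% of the possible reads of 75 bases also occur in the read-through transcript MAGEA10-MAGEA5, which the files count apart.

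MAGEA11, a transcriptional coregulator, had 527.9, 342.6 and 349.4 normalised reads in SPANX KD 86 libraries, 840.7, 693.4 and 654.2 in SPANX KD 87 libraries, and 713.4, 526.2 and 509.8 in EV libraries. Replicate 1 was the highest of its group each time, and only construct 86 and construct 87 did not overlap. MAGEA11 was 1.82-fold higher with construct 87 than with construct 86 (log2 difference 0.86 ± 0.23 SE, adjusted p = 0.0192), a call that was lost without SPANX KD 86 replicate 2, SPANX KD 86 replicate 3 or SPANX KD 87 replicate 1 (adjusted p = 0.0824, 0.0655 and 0.0749). The log2 fold change was -0.53 with construct 86 against EV (95% interval -1.04 to -0.03, adjusted p = 0.0931) and 0.33 with construct 87 against EV (-0.18 to 0.84, adjusted p = 0.38). The first of these passed with the replicate block (adjusted p = 0.00835) and without SPANX KD 86 replicate 1 (log2 fold change -0.73, adjusted p = 0.0352). With the block and the removal of a trend with transcript length together, it did not pass (log2 fold change -0.28, adjusted p = 0.0975). In that fit MAGEA11 passed as higher with construct 87 than in EV (log2 fold change 0.45, adjusted p = 0.0236).

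MAGEA6, a partner of TRIM28 in the degradation of the energy sensor AMPK, passed in no comparison. Its values were 1568, 1210 and 1253 normalised reads in SPANX KD 86 libraries, 1527, 1482 and 1547 in SPANX KD 87 libraries, and 2168, 1469 and 1345 in EV libraries, and all 3 groups overlapped. The log2 fold change against EV was -0.28 with construct 86 (95% interval -0.75 to 0.18) and -0.1 with construct 87 (-0.56 to 0.37). MAGEA6 shares 33.7% of its possible 3' reads with its near copy MAGEA3, so its level is uncertain to the extent that reads of the pair were split. MAGEA3 itself averaged 1641 ± 183 normalised reads with construct 86, 1774 ± 164 with construct 87 and 1866 ± 391 in EV and also passed in no comparison.

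MAGEC1 and MAGEC2 lie next to each other on chromosome X. MAGEC1, a large MAGE protein also known as CT7, was scarce: 59, 117 and 121 recovered reads in all with construct 86, construct 87 and EV. It had 17.4, 22.8 and 17.6 normalised reads in SPANX KD 86 libraries, 26.3, 46.3 and 38.6 in SPANX KD 87 libraries, and 40, 52.1 and 30.2 in EV libraries, so that the construct 86 libraries lay below all others. It fell with construct 86 (log2 fold change -1.02 ± 0.34 SE, 2.03-fold, adjusted p = 0.0376). That call did not survive leaving out EV replicate 1, EV replicate 2, any of the 3 SPANX KD 86 libraries, SPANX KD 87 replicate 2 or SPANX KD 87 replicate 3 (adjusted p of 0.0868, 0.102, 0.0862, 0.0663, 0.0912, 0.0518 and 0.0501), and was lost when the 2 groups were fitted alone (0.0613). For construct 87 against construct 86 the log2 difference was 0.88 (95% interval 0.14 to 1.63, adjusted p = 0.0799), which passed with the replicate block (adjusted p = 0.0261). Against EV, construct 87 had a log2 fold change of -0.14 (95% interval -0.88 to 0.61).

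MAGEC2, a TRIM28 partner also known as CT10, was lowest with construct 87. It had 2618, 2193 and 2000 normalised reads in SPANX KD 86 libraries, 1508, 1207 and 1183 in SPANX KD 87 libraries, and 2839, 2425 and 1986 in EV libraries. The construct 87 libraries were the lowest 3 of the 9, while construct 86 and EV overlapped. It fell with construct 87 (log2 fold change -0.89 ± 0.2 SE, 1.85-fold, adjusted p = 0.0206), a call that was lost without EV replicate 1 (adjusted p = 0.0811) or SPANX KD 87 replicate 1, 2 or 3 (0.0511, 0.0829 and 0.0529). It was also lower with construct 87 than with construct 86 (log2 difference -0.8, adjusted p = 0.0141), a call lost without SPANX KD 86 replicate 1 or SPANX KD 87 replicate 2 or 3 (0.0562, 0.0569 and 0.0533). With construct 86 the log2 fold change against EV was -0.08 (95% interval -0.53 to 0.36, adjusted p = 0.77).

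PAGE1, a small GAGE-like protein, was the least read of the set with construct 86. Its recovered reads were 19, 3 and 8 in SPANX KD 86 libraries, 48, 41 and 60 in SPANX KD 87 libraries, and 66, 21 and 58 in EV libraries. On the common scale these are 18.4, 2.64 and 9.38 normalised reads with construct 86, 50.4, 35.2 and 61 with construct 87, and 73.3, 19.2 and 62.5 in EV; the highest construct 86 library was just below the lowest EV library. PAGE1 fell with construct 86 (log2 fold change -2.34 ± 0.64 SE, 95% interval -3.76 to -0.92, 5.07-fold, adjusted p = 0.0171). The call was lost without EV replicate 1 (log2 fold change -1.99, adjusted p = 0.0745), EV replicate 3 (-2.1, 0.0586) or SPANX KD 86 replicate 2 (-1.69, 0.0635). It was higher with construct 87 than with construct 86 (log2 difference 2.43, 5.4-fold, adjusted p = 0.0188), a call lost without SPANX KD 86 replicate 2, SPANX KD 87 replicate 1 or SPANX KD 87 replicate 3 (log2 differences 1.78, 2.39 and 2.26; adjusted p = 0.0663, 0.0578 and 0.0594). Leaving out SPANX KD 86 replicate 2 moved both folds by more than 1.5 times. Leaving out EV replicate 2 moved that against EV as far the other way (log2 fold change -2.93, adjusted p = 0.00352). The log2 fold change of construct 87 against EV was 0.09 (95% interval -1.33 to 1.51).

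PAGE5 and GAGE2A, the other short antigens, passed in no comparison with all 9 libraries and no block. PAGE5 had 2948, 1886 and 2217 normalised reads in SPANX KD 86 libraries, 2857, 1921 and 2633 in SPANX KD 87 libraries, and 3222, 1625 and 4162 in EV libraries. GAGE2A had 58.1, 19.3 and 44.6 normalised reads in SPANX KD 86 libraries, 55.7, 38.6 and 52.8 in SPANX KD 87 libraries, and 127, 32 and 90.5 in EV libraries. Replicate 2 was the lowest of every group for PAGE5, GAGE2A and PAGE1 alike, and the groups overlapped for PAGE5 and GAGE2A. The log2 fold change of GAGE2A was -0.94 with construct 86 (95% interval -2.09 to 0.22, adjusted p = 0.184), -0.56 with construct 87 (-1.71 to 0.6) and 0.38 for construct 87 against construct 86 (-0.77 to 1.54). With the replicate block GAGE2A passed with construct 86 (adjusted p = 0.0174), and it did so without EV replicate 2 (log2 fold change -1.51, adjusted p = 0.019). For PAGE5 these log2 values were -0.27, -0.2 and 0.08, with 95% intervals reaching from -1 to 0.45, -0.93 to 0.53 and -0.65 to 0.8. Of the possible 3' reads of GAGE2A 86.7% also occur in other GAGE genes, chiefly the GAGE12 copies. How shared reads were counted is not known, so its level may include reads of other copies or miss shared ones. For PAGE5 the share was 8.24% and for PAGE1 0%.

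PRAME, the only one of the 10 genes on an autosome (chromosome 22), lay on opposite sides of EV with the 2 constructs. It had 2022, 2424 and 3183 normalised reads in SPANX KD 86 libraries, 1172, 1196 and 1344 in SPANX KD 87 libraries, and 1605, 1907 and 1777 in EV libraries. All construct 86 libraries were above all EV libraries and all construct 87 libraries below them. The level was 2.02-fold lower with construct 87 than with construct 86 (log2 difference -1.02 ± 0.2 SE, 95% interval -1.45 to -0.58, adjusted p = 0.00417). Against EV the log2 fold change was 0.51 with construct 86 (95% interval 0.07 to 0.94, adjusted p = 0.067) and -0.51 with construct 87 (-0.95 to -0.07, adjusted p = 0.125), and neither passed. Both passed with the replicate block, the first as a rise (adjusted p = 0.0136) and the second as a fall (adjusted p = 0.0246). The first also passed without SPANX KD 86 replicate 1 (log2 fold change 0.66, adjusted p = 0.0367).

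**Figure D2:**
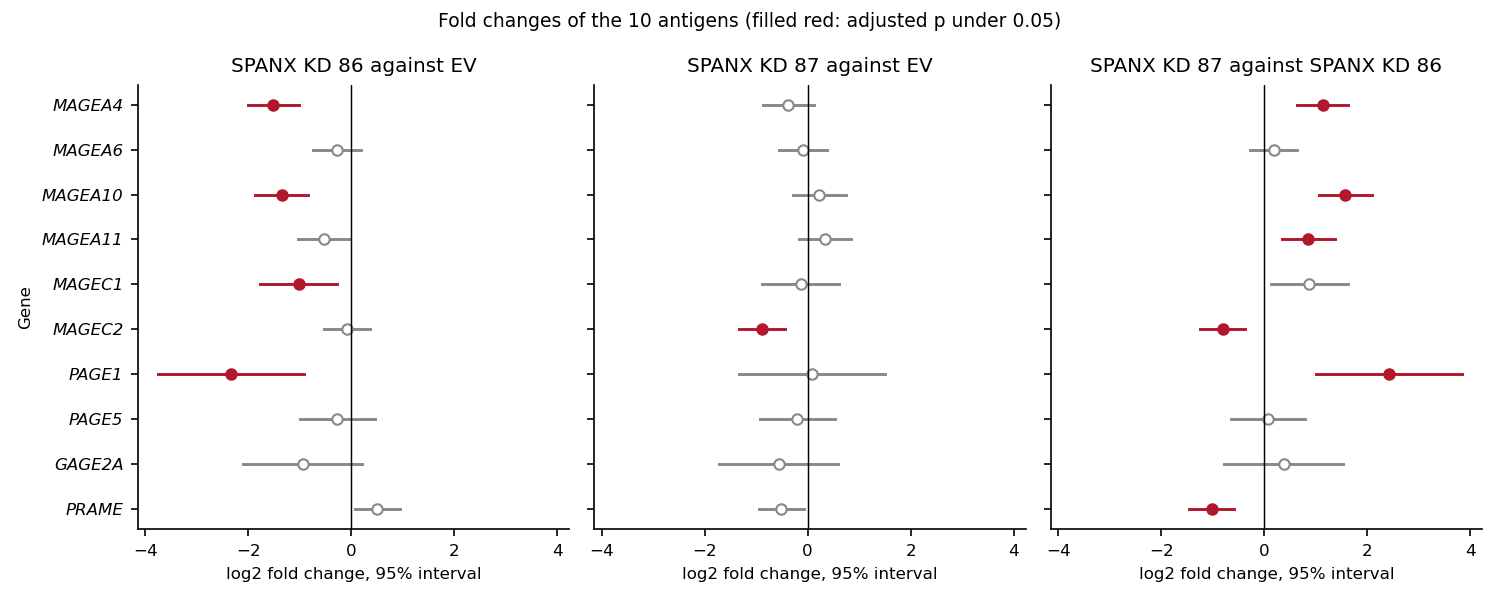
Log2 fold changes (points) with 95% intervals (lines) of the 10 antigens for SPANX KD 86 against EV, SPANX KD 87 against EV and SPANX KD 87 against SPANX KD 86, with filled red points for an adjusted p under 0.05. Red points number 4 in the first panel (all lower), 1 in the second (lower) and 6 in the third (4 higher, 2 lower).

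Fold changes over all genes followed transcript length, and several antigens are short. The longest annotated transcripts of GAGE2A, PAGE1 and PAGE5 have 528, 665 and 741 bases, those of the other 7 antigens 1762 to 4270. With construct 86 the median log2 fold change against EV ran from -0.48 in the shortest to 0.39 in the longest of 5 equal bins of the 13770 tested genes of known length, and with construct 87 from -0.23 to 0.21. When this trend was removed, a setting chosen after seeing the data, the log2 fold changes with construct 86 were -1.24 for MAGEA4 (adjusted p = 4.7e-04), -1.26 for MAGEA10 (8.7e-04), -1.18 for MAGEC1 (0.0142) and -1.74 for PAGE1 (0.0175). For GAGE2A the value was then -0.28 (adjusted p = 0.584, and 0.375 with the block), and for PRAME 0.6, which passed (adjusted p = 0.0216). MAGEC2 with construct 87 was -0.79 (adjusted p = 0.029). Between constructs MAGEC1 passed as well (log2 difference 0.97, adjusted p = 0.0391). Of all genes with a known length 37.5% were called with construct 86 once the trend was removed (18.6% higher and 19% lower), 15.1% with construct 87 (7.96% higher and 7.1% lower) and 30.5% between constructs (15.3% higher and 15.2% lower with construct 87). Against these shares 1 antigen rose and 4 fell with construct 86, 0 rose and 1 fell with construct 87, and 5 were higher and 2 lower with construct 87 than with construct 86. The median log2 fold change of the 10 antigens was then -0.28 with construct 86, against -0.03 over all genes of known length. It was -0.09 with construct 87 against 0.0002, and 0.38 for construct 87 against construct 86 where all these genes had 0.016.

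**Figure D3:**
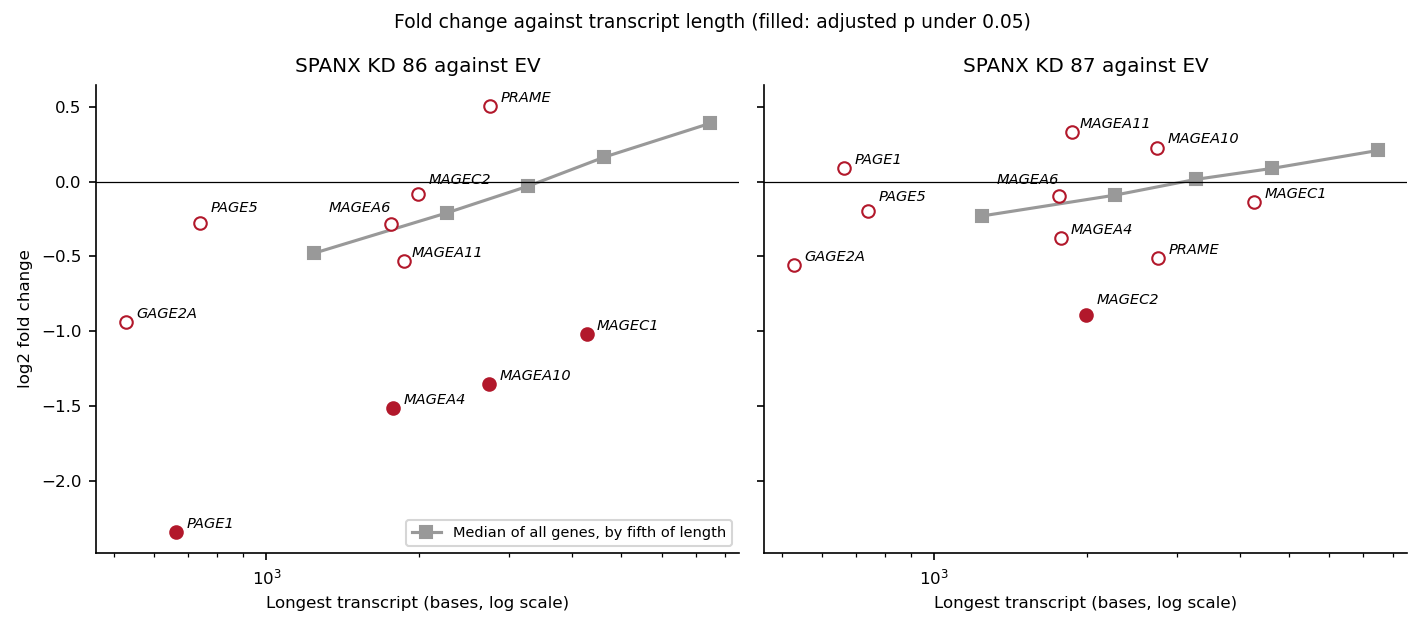
Log2 fold change (vertical axis) against the length of the longest annotated transcript in bases (horizontal log axis) for the 10 antigens (circles, filled where the adjusted p is under 0.05) and for the median gene of each of 5 equal bins of length (grey squares), with SPANX KD 86 against EV on the left and SPANX KD 87 against EV on the right. The grey line on the left climbs from -0.48 at 1242 bases to 0.39 at 7470 bases. MAGEA4, MAGEA10, MAGEC1 and MAGEA11, the last with an open circle, lie below it. PAGE1 and GAGE2A (open circle) are shorter than its first point and lie lower than that point.

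On chromosome X, 9 of the antigens lie in small groups with tested genes beside them (RefSeq order). MAGEC1 and MAGEC2 follow SPANXC and SPANXD, which fell with both constructs, whereas MAGEC1 fell with construct 86 and MAGEC2 with construct 87. MAGEA4 and MAGEA10 are separated by GABRE, a GABA receptor subunit with log2 fold changes against EV of 0.92 with construct 86 and 0.53 with construct 87 (adjusted p = 0.459 and 0.748). GAGE2A, GAGE1 and PAGE1 follow each other; GAGE1 averaged 128 ± 53.5 normalised reads with construct 86, 155 ± 40.9 with construct 87 and 160 ± 76.4 in EV and passed in no comparison. PAGE5 lies beside PAGE2, which averaged 733 ± 206, 766 ± 173 and 949 ± 569 normalised reads in the same groups and did not pass either. Other neighbours within 2 places of an antigen were called against EV. HMGB3, FTH1P8 and CCDC22 fell with construct 86 (limma adjusted p = 9.6e-04, 0.0148 and 0.0152), and HMGB3 with construct 87 (0.00517). GABRA3, IDS, SLITRK2, PPP1R3F and SHROOM4 rose with construct 86 (0.00383, 0.0299, 0.0104, 0.00351 and 0.00172). IDS and FOXR2 rose with construct 87 (0.0131 and 0.0425). Over the 466 tested genes of chromosome X the shares called were 36.7% with construct 86, 9.23% with construct 87 and 27.3% between constructs, against 35.6%, 10.3% and 25.6% over all genes.

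Most relatives outside the set stood at 0 in every library. The files list all 20 other type I MAGE genes looked for (the testis-restricted ones), and only MAGEA1, MAGEA3 and MAGEA12 were above 0. MAGEA1, the founding member, had 6.78, 7.91 and 10.6 normalised reads in SPANX KD 86 libraries, 46.2, 34.3 and 26.4 in SPANX KD 87 libraries, and 34.5, 19.2 and 27 in EV libraries. It fell with construct 86 (log2 fold change -1.55, adjusted p = 0.00923) and was higher with construct 87 than with construct 86 (log2 difference 1.95, adjusted p = 0.00383), from 25, 110 and 77 recovered reads with construct 86, construct 87 and EV. MAGEA12 averaged 1723 ± 246 normalised reads with construct 86, 2457 ± 209 with construct 87 and 1973 ± 403 in EV and did not pass in any comparison (adjusted p = 0.0845 between constructs). It was called higher with construct 87 than with construct 86 with the block (adjusted p = 0.00929), with the block and the length trend removed (0.0175), with the 2 groups alone (0.0489) and without EV replicate 2 (0.0454). It was called higher than EV with the block and the length trend removed (0.00893). Of 33 other GAGE, PAGE and XAGE genes looked for, 27 were matched by symbol, and of these GAGE1 and PAGE2 alone were above 0.

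Among the type II MAGE genes, which are expressed in many tissues, 8 of 12 were tested; 2 rose and 2 fell with construct 86, where 18% of all tested genes rose and 17.6% fell, and 1 rose with construct 87, where 5.89% did. MAGEF1, a partner of the NSMCE1 ubiquitin ligase, averaged 159 ± 32.2 normalised reads with construct 86, 825 ± 41 with construct 87 and 826 ± 182 in EV, a 5.16-fold fall with construct 86 (adjusted p = 7.5e-05). MAGEE1 averaged 14.1 ± 9.29, 32.1 ± 15.3 and 56.2 ± 16.3 normalised reads and fell with construct 86 (adjusted p = 0.00891). MAGED2, which regulates salt transporters in the kidney, averaged 2260 ± 95.6, 1508 ± 450 and 789 ± 134 normalised reads and rose with construct 86 (2.88-fold, adjusted p = 7.8e-04) and with construct 87 (1.87-fold, adjusted p = 0.0288). The construct 87 call was lost without EV replicate 3 or SPANX KD 87 replicate 1 or 2 (adjusted p = 0.0753, 0.12 and 0.0645) and when the 2 groups were fitted alone (0.0729). TRO averaged 61.7 ± 16.8, 56.9 ± 21.1 and 24 ± 10.2 normalised reads and rose with construct 86 (adjusted p = 0.0211), a call lost without EV replicate 1 or SPANX KD 86 replicate 2 or 3 (0.0684, 0.0615 and 0.0724). With construct 87 it passed with the block (0.0299) but not without (0.0744). With the block, 4 type II genes rose and 1 fell with construct 87, where 16.1% of all tested genes rose and 14.8% fell.

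**Figure D4:**
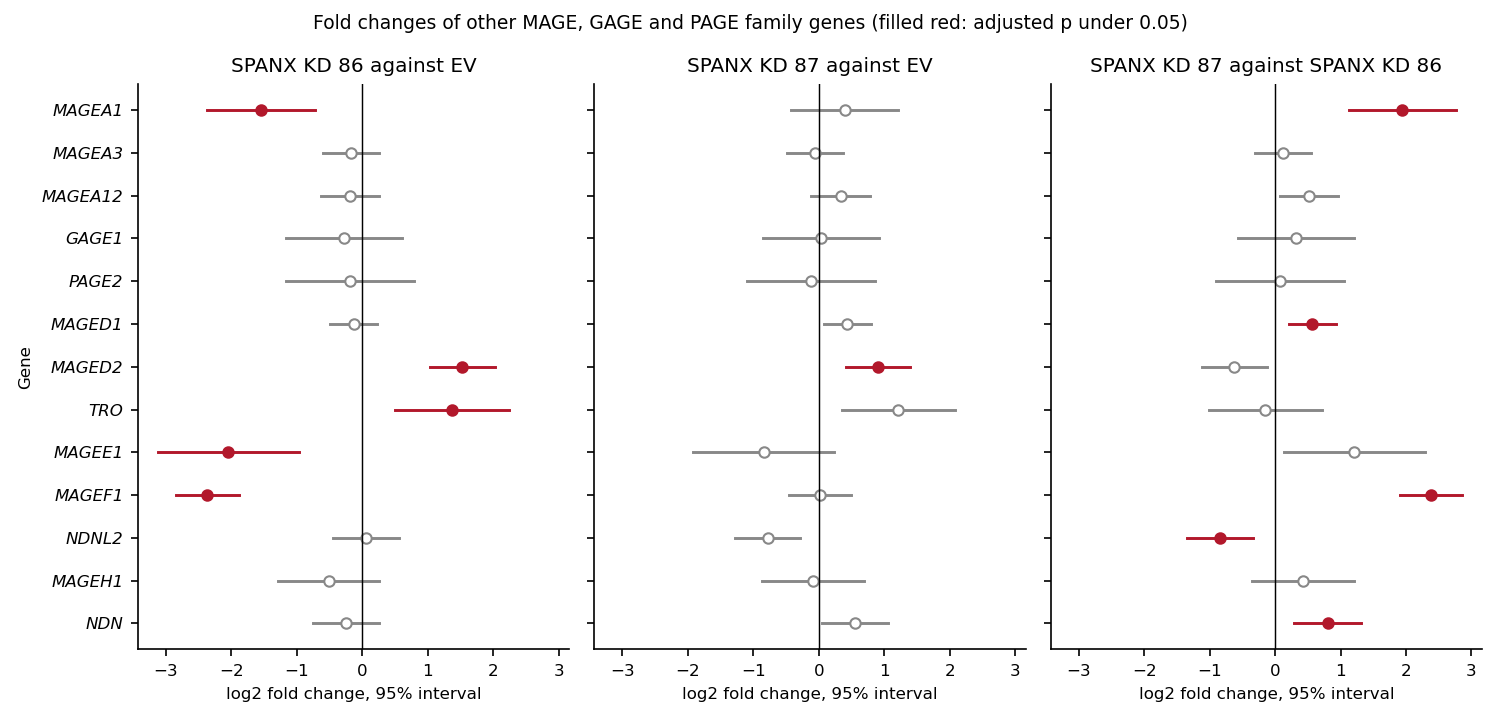
Log2 fold changes (points) with 95% intervals (lines) of tested MAGE, GAGE and PAGE genes outside the set for SPANX KD 86 against EV, SPANX KD 87 against EV and SPANX KD 87 against SPANX KD 86; filled red points have an adjusted p under 0.05. MAGEF1 and MAGEA1 lie to the left of 0 with construct 86 and near 0 or to its right with construct 87, and MAGED2 lies to the right of 0 with both.

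Of 94 cancer-testis antigens of other families 28 were tested: 4 rose and 9 fell with construct 86 and 1 rose and 3 fell with construct 87 (5 and 12, and 1 and 9, with the block). Over all tested genes 18% rose and 17.6% fell with construct 86 and 5.89% rose and 4.42% fell with construct 87 (27% and 28.3%, and 16.1% and 14.8%, with the block). The median log2 fold changes of the 28 genes were -0.59 and -0.31, against -0.04 and 0.0 over all tested genes. LY6K, a membrane-anchored surface protein, averaged 372.5 ± 107 normalised reads with construct 86, 704 ± 102 with construct 87 and 1536 ± 381 in EV and fell with both (4.14-fold and 2.15-fold, adjusted p = 3.0e-04 and 0.0207). SPA17, a sperm surface protein, averaged 56.6 ± 5.21, 145 ± 30.2 and 208 ± 50.3 normalised reads and fell with construct 86 (adjusted p = 6.7e-04). PBK, a mitotic kinase, averaged 664 ± 164, 739.5 ± 273 and 1769 ± 500 normalised reads and fell with both (2.64-fold and 2.43-fold, adjusted p = 0.00674 and 0.0284). LEMD1, which carries the LEM domain found in several lamina-associated proteins, averaged 194 ± 72.3, 161 ± 49.7 and 50.1 ± 31.5 normalised reads and rose with both (4.21-fold and 3.52-fold, adjusted p = 0.00604 and 0.0308). The construct 87 calls were lost for LY6K without EV replicate 1 or SPANX KD 87 replicate 1 or 2 (adjusted p = 0.0844, 0.103 and 0.0512), for PBK without EV replicate 1 or 3 or SPANX KD 87 replicate 1 or 2 (0.119, 0.0722, 0.132 and 0.0869) and for LEMD1 without EV replicate 1 or SPANX KD 87 replicate 1 or 3 (0.0978, 0.139 and 0.0607). Those of PBK and LEMD1 were also lost when the 2 groups were fitted alone (0.0528 and 0.0574).

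Genes that act on the silencing of the family were called in both directions, as were genes at large. The shares over all tested genes were 18% higher and 17.6% lower with construct 86 and 5.89% and 4.42% with construct 87 (27% and 28.3%, and 16.1% and 14.8%, with the block). Of 19 tested DNA methylation enzymes and readers, 3 rose and 2 fell with construct 86 and 0 rose and 1 fell with construct 87 (6 and 3, and 8 and 2, with the block). DNMT3A, a de novo methyltransferase, averaged 434 ± 102 normalised reads with construct 86, 241 ± 65 with construct 87 and 148 ± 31 in EV and rose with construct 86 (2.9-fold, adjusted p = 0.00212). With construct 87 it passed as higher with the block (adjusted p = 0.0438) and not without (0.137). That blocked call was lost when the length trend was also removed. HELLS, a remodeller needed for methylation of repeats, averaged 446 ± 27.4, 478 ± 124 and 871 ± 102 normalised reads and fell with both (1.95-fold and 1.85-fold, adjusted p = 0.00653 and 0.0263). UHRF2, a reader of methylated DNA, rose with construct 86 (1.78-fold, adjusted p = 0.0117), a call lost without SPANX KD 86 replicate 2 (0.0539). With construct 87 it passed as higher with the block (0.0105) or with the length trend removed (0.0435), but not without either (0.0729). MBD3, a subunit of the NuRD repressor, fell with construct 86 (1.95-fold, adjusted p = 0.00522). Of 32 chromatin repressors of germline genes, 3 rose and 8 fell with construct 86 and 2 rose and 1 fell with construct 87 (6 and 11, and 3 and 6, with the block). With the length trend removed 1 rose and 10 fell with construct 86, while the 19 methylation genes had 3 and 3. Of all genes of known length 18.6% rose and 19% fell with construct 86 in that fit. HDAC3, a histone deacetylase, averaged 438 ± 85.6, 1251 ± 83 and 1125 ± 198 normalised reads and fell with construct 86 (2.58-fold, adjusted p = 8.6e-04). KDM5B, a histone demethylase itself classed as a cancer-testis antigen, averaged 3168 ± 449, 3345 ± 784 and 1392 ± 314 normalised reads and rose with both (2.3-fold and 2.4-fold, adjusted p = 0.00314 and 0.00931). The construct 87 calls were lost for HELLS without EV replicate 1 or SPANX KD 87 replicate 1 or 2 (adjusted p = 0.0973, 0.119 and 0.0857) and for KDM5B without SPANX KD 87 replicate 1 (0.0523). That of HELLS was also lost when the 2 groups were fitted alone (0.066). KDM1A, the LSD1 demethylase, fell with construct 86 (1.65-fold, adjusted p = 0.00885).

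For partners of the antigens the counts stand beside the shares over all tested genes. Those were 18% higher and 17.6% lower with construct 86 and 5.89% and 4.42% with construct 87. With the block they were 27% and 28.3%, and 16.1% and 14.8%. Of 18 tested ligase partners and clients of MAGE proteins, 0 rose and 3 fell with construct 86 and 0 rose and 1 fell with construct 87 (1 and 5, and 0 and 2, with the block). The 3 of 18 are near the 17.6% of all tested genes that fell with construct 86. TRIM69 averaged 30.9 ± 9.83 normalised reads with construct 86, 178 ± 25 with construct 87 and 188 ± 51.5 in EV and fell with construct 86 (5.94-fold, adjusted p = 2.5e-04). NSMCE1, the ring-type ligase of the SMC5/6 complex, averaged 277 ± 38.4, 559 ± 169 and 754 ± 260 normalised reads and fell with construct 86 (2.62-fold, adjusted p = 0.00504). TRIM28, the partner of MAGEA6 and MAGEC2, averaged 6324 ± 609, 8443 ± 1384 and 10410 ± 3450 normalised reads. It did not pass against EV (adjusted p = 0.0614 and 0.539) but did with the block for construct 86 (0.00705). The list of the PRAME ligase and the retinoid receptors, which also holds EZH2, had 10 tested genes. Of these, 1 rose and 1 fell with construct 86, and 0 rose and 1 fell with construct 87. With the block the counts were 1 and 4, and 1 and 3. RARG, a retinoic acid receptor, averaged 2077 ± 337, 1306 ± 204 and 1179 ± 181 normalised reads and rose with construct 86 (adjusted p = 0.0117), a call lost without SPANX KD 86 replicate 2 (0.0569). EZH2, the Polycomb methyltransferase that binds PRAME, averaged 348 ± 25.2, 439 ± 95.4 and 728 ± 71.4 normalised reads and fell with construct 86 (adjusted p = 0.00305). Without the block EZH2 was the only fall of this list with either construct, and it was also counted among the chromatin repressors above. Its fall with construct 87 (adjusted p = 0.0425) was lost without any one of the 9 libraries (0.0526 to 0.175), with no variance trend (0.0559) and when the 2 groups were fitted alone (0.0928). TCEB1 and RBX1, subunits of the PRAME ligase, averaged 1155 ± 296 and 640 ± 235 normalised reads with construct 86, 1336 ± 369 and 587 ± 140 with construct 87, and 2231 ± 1014 and 1180 ± 651 in EV. Neither passed against EV, and both passed as lower with the block, TCEB1 at adjusted p = 0.00382 and 0.0305 and RBX1 at 0.0192 and 0.0215 for constructs 86 and 87. With the length trend also removed, RBX1 kept the construct 87 call (0.0248) and lost that of construct 86.

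Retinoic acid targets were looked at as a general list, and a part of PRAME in their levels was not tested. Of 7 tested, 3 rose and 1 fell with construct 86 and 0 rose and 0 fell with construct 87 (3 and 1, and 2 and 0, with the block). Their median log2 fold changes were 0.43 and 0.016. Over all tested genes 18% rose and 17.6% fell with construct 86 and 5.89% rose and 4.42% fell with construct 87 (27% and 28.3%, and 16.1% and 14.8%, with the block). The medians over all tested genes were -0.04 and 0.0. CYP26B1, which breaks down retinoic acid, averaged 494 ± 91.2 normalised reads with construct 86, 233 ± 14 with construct 87 and 138 ± 26.6 in EV and rose with construct 86 (3.56-fold, adjusted p = 2.7e-04). CYP26B1 with construct 87 did not pass (adjusted p = 0.0508) but did with the block (0.0124). DHRS3, a retinaldehyde reductase, and STRA6, a receptor for retinol transport, rose with construct 86 (2.12-fold and 4.67-fold, adjusted p = 0.0162 and 0.0143). These calls were lost for DHRS3 without EV replicate 1 or SPANX KD 86 replicate 2 or 3 (0.0686, 0.0624 and 0.0593) and for STRA6 without EV replicate 1 or SPANX KD 86 replicate 2 (0.0639 and 0.0582). With construct 87 neither passed against EV, and STRA6 did with the block (0.00548). TGM2, a transglutaminase, averaged 1990 ± 597 normalised reads with construct 86, 4176 ± 1303 with construct 87 and 4367 ± 832 in EV and fell with construct 86 (2.23-fold, adjusted p = 0.0106). It did not pass with construct 87 (adjusted p = 0.858).

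The genes most like each antigen across the 9 libraries were named by Pearson's r of log2(value + 1) among 11805 tested genes averaging at least 50 normalised reads. For MAGEA4 they were NCBP2-AS2 (r = 0.996) and CTH (0.995), for MAGEA10 COG6 (0.994) and LINC01003 (0.992), and for MAGEA11 NDUFV3 (0.994) and GSPT2 (0.985). For MAGEC2 they were FAM120C (0.983) and EI24 (0.977), and for PRAME PODXL (0.981) and ARHGEF19 (0.973). For MAGEA6, PAGE5 and GAGE2A they were RAB5C (0.966), SEC22A (0.984) and WDR41 (0.972), followed by PSMC2, SNAPIN and EIF1B. The points share their libraries and group differences, and r above 0.9 was common: 548 genes passed it with MAGEA4, 471 with MAGEA10 and 32 with MAGEA6.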

How the data were processed

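Libraries were made with Lexogen's QuantSeq 3' mRNA-Seq FWD kit and sequenced on a NextSeq 500 as single reads of 75 bases, per the labels' protocols. The deposited value of each gene is a score: the authors' read counts scaled per library and rounded to whole numbers. Named in the submitters' processing notes, with neither role nor version, are edgeR, featureCounts, STAR and Subread, along with the hg19 build. A count test was not used, because the values are scaled. The reads behind each value were recovered from the spacing of the values in each library. In the libraries that had been scaled up, at least 99.8% of the low values were exactly a whole number of reads after rounding. EV replicate 2, SPANX KD 86 replicates 1 and 2 and SPANX KD 87 replicate 2 had been scaled down. Every whole number can arise there, so this check could not fail in them. The libraries were put on 1 scale with the TMM formula (trims of 30% and 5%). Gene IDs listed several times were taken once.

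Tests used limma 3.58.1 in R 4.3.3 on log2(value + 1) with a variance trend and all 9 libraries in 3 groups. Tests were two-sided, and p-values were adjusted (Benjamini-Hochberg) over the 13825 gene IDs above 0 in at least 1 library of every group, at a threshold of 0.05. Fold changes on this scale understate those of genes with few reads. The script was tested on simulated data with known changes.

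Same-numbered libraries of different groups deviated together from their group means (r of 0.215 to 0.722 across 13819 genes for 9 pairs, against -0.644 to 0.14 for 18 other pairs), which is where the pairing comes from; the labels do not state it. The fit with a replicate block is given where it changes a call of an antigen, or a call against EV of another gene named from the related lists.

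Named are the 10 antigens, SPANXC and SPANXD, up to 4 tested genes of each related list ranked by adjusted p for the 2 constructs averaged against EV, and the 2 genes most like each antigen averaging at least 50 normalised reads. Tested neighbours of the antigens are named as well. The members and lists were chosen with earlier results of these data known. Of the related lists, 2 genes are not reported here and were left out of their lists' counts. Promoters come from RefSeq on GRCh38.p14 and transcript lengths and 3' read sharing (75-base words in the last 300 bases) from GENCODE transcripts, while the files were made on hg19; no coordinate was moved between builds. Alternatives were other pseudocounts (0.5 and 5), no filter or a mean filter of 10, median-ratio scaling, the deposited scale, no variance trend, the 2 groups alone, the block, each library left out, and, added after seeing the data, removal of the length trend.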

Additional observations from a re-analysis of the deposited data

Results flagged for a closer look

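Results are listed here because the effects of the 2 constructs differed by a test of the difference itself (limma, adjusted p under 0.05 for SPANX KD 87 against SPANX KD 86). The log2 difference was 1.14 for MAGEA4, 1.58 for MAGEA10, 0.86 for MAGEA11 and 2.43 for PAGE1, all higher with construct 87. It was -0.80 for MAGEC2 and -1.02 for PRAME, both lower with construct 87. The calls of MAGEA4, MAGEA10 and PRAME held without each library in turn.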

How the results depend on the processing

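Of the called values of the 10 antigens, 196 stayed called in the same direction under an alternative and 24 lost the call; of the values not called, 343 stayed so, 15 became called and 22 changed sign. The count of called genes was 4928 for construct 86 against EV, 1425 for construct 87 against EV and 3533 for construct 87 against construct 86. With the replicate block it was 7647, 4280 and 6096, and with the block and the length trend removed together 7579, 4797 and 6570. For construct 87 against EV it was 2630 with no filter on low values and 858 with the 2 groups alone. Leaving out 1 library gave 3054 to 6017 (lowest without SPANX KD 86 replicate 2), 367 to 2550 (lowest without SPANX KD 87 replicate 1) and 2204 to 4192 (lowest without SPANX KD 86 replicate 2). On its own, the replicate block changed no call of an antigen other than those given beside the values; with the length trend also removed, the blocked calls of MAGEA11 and GAGE2A with construct 86 were lost and MAGEA11 was called higher with construct 87 than in EV. Sign changes, none of them called, were as follows, and the cause was not tested. Removing the length trend, alone or with the block, gave log2 values of 0.028 for MAGEA6 with construct 87, 0.15 for MAGEC2 with construct 86, and 0.29, 0.066 and -0.23 for PAGE5 in the 3 comparisons. Over the fits that each leave out 1 library, the log2 value ran from -0.23 to 0.11 for MAGEA6, -0.33 to 0.086 for MAGEC1, -0.50 to 0.44 for PAGE1 and -0.59 to 0.090 for PAGE5 with construct 87 against EV. It ran from -0.22 to 0.040 for MAGEC2 and -0.66 to 0.014 for PAGE5 with construct 86 against EV, and from -0.070 to 0.25 for PAGE5 and -0.070 to 0.70 for GAGE2A with construct 87 against construct 86. With 3 libraries a group and 30 to 233 recovered reads per group, changes of PAGE1, MAGEC1 and GAGE2A have the widest intervals.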
